A study of Mus musculus with 6 samples.

Results

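The genes described here are 8 genes of tip cells and sprouting vessels, namely Apln, Aplnr, Esm1, Plvap, Cxcr4, Trp53i11, Efnb2 and Ephb4, out of 18194 genes with a value in the series. They were chosen by name, with earlier results of these data known. In the series 12 probe sets carried exactly 1 of these symbols, 4 for Efnb2, 2 for Aplnr and 1 for each of the other 6 genes. Where a gene had several, the one with the highest mean intensity gave its main value. Male Black Swiss mice of 8 to 10 weeks were the source of left ventricular cells, which were sorted, and their RNA was hybridised to Affymetrix arrays. Per the series design, 3 mice were sham operated and 3 had transverse aortic constriction (TAC), in which a ligature around the aorta raises the pressure against which the left ventricle works, and cells were taken 1 week later. The 6 groups, with 1 array each, were Tie2cre lineage traced fibroblasts, fibroblasts without the Tie2cre trace and endothelial cells, each from sham and from TAC hearts. The tracing depends on Cre driven by the promoter of the gene Tek, so a traced fibroblast is one in which, or in an ancestor of which, that promoter was active. Tek itself had a log2 intensity of 11.76 and 11.91 on the traced and untraced sham fibroblast arrays. It had 10.70 and 11.14 on those from TAC hearts, and 12.63 and 12.38 on the sham and TAC endothelial arrays. The labels do not say whether the RNA of several mice was pooled, or whether arrays of the same surgery shared hearts. No group has a replicate.

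New capillaries grow as sprouts that are led by a migrating tip cell and elongated by the stalk cells behind it. Vascular endothelial growth factor selects the tip cell, and Notch signalling from the tip keeps its neighbours in the stalk. Tip cells secrete apelin (Apln) and endocan (Esm1) and carry the chemokine receptor Cxcr4, whereas the apelin receptor Aplnr is found on stalk and venous endothelium. Plvap is the protein of the diaphragms that close fenestrae and caveolae, and the continuous capillaries of heart muscle are known to hold little of it. The ephrin ligand Efnb2 marks arterial endothelium and its receptor Ephb4 marks veins, and each is needed for the vessel network to be remodelled.

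Between the endothelial arrays of sham and TAC hearts, Plvap, Apln and Esm1 stood at least 2-fold higher after TAC and Cxcr4 at least 2-fold lower. For reference, the bases before the gene start are shown for Apln, Esm1 and Cxcr4, but not for Plvap, for which no sequence was found. Of the 8 genes, 6 matched the RefSeq promoter table (GRCm38.p6) and Plvap and Aplnr are named only. Each run is the 250 bases before the start, 5′ to 3′ on the strand of the gene. It lies at chrX:48034854-48035103 on the minus strand for Apln, at chr13:113209409-113209658 on the plus strand for Esm1 and at chr1:128592300-128592549 on the minus strand for Cxcr4. Capitals mark a match to 1 of 5 short motifs searched on both strands.
Apln: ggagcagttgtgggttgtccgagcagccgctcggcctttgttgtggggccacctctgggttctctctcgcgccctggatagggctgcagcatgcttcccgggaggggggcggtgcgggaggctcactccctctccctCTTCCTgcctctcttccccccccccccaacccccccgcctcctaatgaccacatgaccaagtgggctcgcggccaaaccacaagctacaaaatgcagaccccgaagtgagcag
Esm1: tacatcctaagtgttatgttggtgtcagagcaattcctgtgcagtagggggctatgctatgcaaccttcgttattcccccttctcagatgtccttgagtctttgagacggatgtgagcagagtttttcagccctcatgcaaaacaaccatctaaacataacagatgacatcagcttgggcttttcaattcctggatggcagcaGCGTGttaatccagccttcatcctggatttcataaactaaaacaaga
Cxcr4: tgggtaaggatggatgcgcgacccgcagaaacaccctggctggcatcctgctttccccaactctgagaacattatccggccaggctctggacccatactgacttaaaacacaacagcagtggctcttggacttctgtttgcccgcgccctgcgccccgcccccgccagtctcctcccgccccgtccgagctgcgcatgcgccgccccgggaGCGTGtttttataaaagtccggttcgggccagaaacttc
The motifs were the hypoxia response cores ACGTG and GCGTG, the ETS core AGGAAG, the RBPJ core GTGGGAA and the AP-1 core TGANTCA. The capitals in Apln are the reverse complement of AGGAAG, which has a match in 29.5% of the 32851 windows of this length, and those in Esm1 and Cxcr4 are GCGTG, found in 28.2% of windows. GCGTG matched in 3 of the 6 windows. The third was that of Trp53i11, a gene within 2-fold between the endothelial arrays (-0.17). ACGTG (16.6% of windows), GTGGGAA (5.42%) and TGANTCA (6.75%) had no match in the 6 windows. GC content was 65.2% for Apln, 44% for Esm1 and 61.2% for Cxcr4. A match is a string of letters and was not tested as a binding site.

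Levels are given as log2 of the probe set intensity, and a gene counted as detected in a comparison when 1 or more of the arrays involved placed it higher than that array's median. Array medians lay between 6.74 and 6.85 on this scale. The labels of the sorts were checked against markers: the fibroblast arrays had Pdgfra between 12.03 and 12.56 and the endothelial sham and TAC arrays had 7.63 and 8.72, while the endothelial cadherin gene Cdh5 was between 6.84 and 8.10 in fibroblasts and at 14.11 and 13.81 in endothelial cells. On the endothelial TAC array, however, 16 of 17 detected fibroblast markers stood at least 2-fold higher than at sham, and the summed intensity of the list of 18 was 6445 at sham and 56039 after TAC, against 169687 to 189983 on the fibroblast arrays. All 18 hybridization control probe sets (bioB, bioC, bioD and cre) stood higher on both endothelial arrays than on every fibroblast array, by a median of 0.77. The 18S ribosomal RNA probe sets had a median of 11.30 on the untraced TAC fibroblast array and of 14.16 to 14.75 on the others. In cells sorted in bulk, fewer cells of a type and less RNA per cell cannot be told apart.

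**Figure D1:**
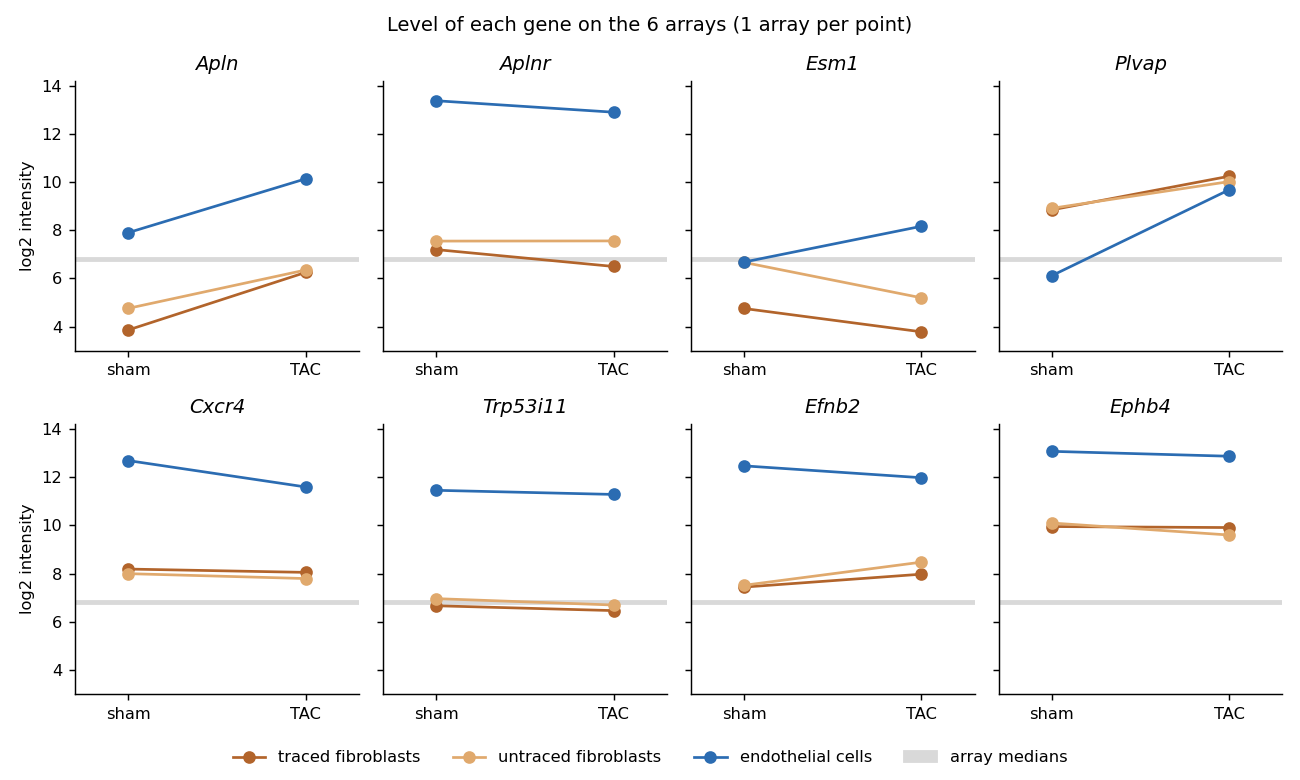
Log2 intensity (vertical axis) of the 8 genes on the sham and TAC arrays of the 3 cell populations, with 1 array per point and lines joining the arrays of a population; the grey band covers the medians of the 6 arrays. Plvap is lower on the endothelial sham array (6.12) than on any fibroblast array, while 7 genes lie higher on both endothelial arrays than on all 4 fibroblast arrays (Esm1 by 0.01), as do 19.9% of 12257 detected genes. Among the 7, Apln and Esm1 counted as detected only through their endothelial level.

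The first question was which of the 8 genes carried the endothelial identity of the sorted cells. Aplnr, Trp53i11, Efnb2, Cxcr4 and Ephb4 were higher in endothelial cells, by 61.4-fold, 25.6-fold, 20.8-fold, 17.6-fold and 8.48-fold. Apln, Esm1 and Plvap did not pass the test. The test was limma with Benjamini-Hochberg adjustment over 12257 detected genes, called at an adjusted p under 0.05 and at least 2-fold, after the traced and untraced arrays of a surgery had been averaged to leave 2 values per cell type. It called 5 of the 8 genes higher in endothelial cells, where 6.5% of all genes tested were, and 0 higher in fibroblasts, where 11.5% were. The median difference of the 8 genes, fibroblast minus endothelial, was -3.93, beside 0.22 over all genes tested. This median includes Apln and Esm1, which were tested only through their endothelial level. The spread behind these p-values is the difference between the sham and TAC values of a cell type, which may be partly technical, and the part of the higher hybridization controls in them was not tested.

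Aplnr, a G protein-coupled receptor, stood at 7.20 and 7.55 on the traced and untraced sham fibroblast arrays, at 6.50 and 7.56 on those from TAC hearts, and at 13.38 and 12.91 on the sham and TAC endothelial arrays. The lowest endothelial and the highest fibroblast value lay 5.35 apart. The difference of -5.94 had a standard error (SE) of 0.29 (limma adjusted p = 0.00382). The second Aplnr probe set gave -5.24 at sham and -5.66 after TAC, against -6.01 and -5.88 for the main one.

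Trp53i11, a gene inducible by p53, was at 6.66 and 6.96 on the sham fibroblast arrays, at 6.46 and 6.69 on the TAC fibroblast arrays and at 11.46 and 11.28 on the endothelial arrays. Its fibroblast levels sat at the array median, at percentiles from 45.4 to 51.9, and its endothelial levels were at the percentiles 95.3 and 94.2. The difference was -4.68 (SE 0.23, limma adjusted p = 0.00382), the smallest standard error among the 8 genes. It was -4.65 between the sham arrays and -4.71 between the TAC arrays.

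Cxcr4, the receptor of the chemokine Cxcl12, stood at 8.19 and 7.99 on the sham fibroblast arrays, at 8.05 and 7.79 on the TAC fibroblast arrays, and at 12.69 and 11.59 on the endothelial arrays. The difference was -4.14 (SE 0.42, limma adjusted p = 0.00937). Its ligand gene Cxcl12 (-0.28, limma adjusted p = 0.609) and the scavenging receptor gene Ackr3 (0.70, limma adjusted p = 0.212) did not pass.

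Efnb2 stood at 7.44 and 7.51 on the sham fibroblast arrays, at 7.97 and 8.47 on the TAC fibroblast arrays, and at 12.47 and 11.98 on the endothelial arrays, a difference of -4.38 (SE 0.37, limma adjusted p = 0.0069). Its 4 probe sets gave -5.25 to -4.55 between the sham arrays and -4.48 to -3.56 between the TAC arrays, so all 4 placed the gene on the endothelial side. Ephb4, its receptor, stood at 9.95 and 10.10 on the sham fibroblast arrays, at 9.91 and 9.60 on the TAC fibroblast arrays and at 13.07 and 12.87 on the endothelial arrays. The difference was -3.08 (SE 0.24, limma adjusted p = 0.00642).

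Apln stood at 3.86 and 4.76 on the sham fibroblast arrays, at 6.25 and 6.35 on the TAC fibroblast arrays and at 7.90 and 10.14 on the endothelial arrays. Every endothelial value was above every fibroblast value, by at least 1.55, and the gap was -3.59 at sham and -3.84 after TAC. The fibroblast values are below the array median, and with 32 intensity units added before the logarithm the gaps were -2.37 and -3.39. The averaged difference of -3.72 had a standard error of 1.01 and did not pass (limma adjusted p = 0.0712), since both cell types stood higher after TAC and this enters the standard error. With surgery as a block it passed (limma adjusted p = 0.000746), although Apln was among the genes tested only through its endothelial level.

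Esm1 was dim on most arrays, at 4.75 and 6.67 on the sham fibroblast arrays, at 3.78 and 5.20 on the TAC fibroblast arrays and at 6.68 and 8.17 on the endothelial arrays. At sham the untraced fibroblast array was level with the endothelial array, 0.01 below it, and after TAC the cell types lay 3.68 apart. The difference of -2.32 had a standard error of 0.67 (limma adjusted p = 0.081). It passed with surgery as a block (limma adjusted p = 0.0387) and without the untraced sham fibroblast array (-2.80, limma adjusted p = 0.0332), but not under the other 10 alternatives that gave a value. Without the traced sham fibroblast array it was -1.85 (limma adjusted p = 0.206). Esm1, too, was tested only through its endothelial level.

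Plvap was placed the other way round. It stood at 8.85 and 8.91 on the sham fibroblast arrays and at 10.25 and 10.02 on the TAC fibroblast arrays, against 6.12 and 9.68 on the sham and TAC endothelial arrays. The endothelial sham level was at percentile 38.7 of its array, and the fibroblast levels were at percentiles from 72.7 to 86.8. The fibroblasts stood 6.80-fold higher than the endothelial cells at sham and 1.37-fold higher after TAC. The averaged difference of 1.61 had a standard error of 1.27 and did not pass (limma adjusted p = 0.412). Without the endothelial TAC array it was 3.39 and passed (limma adjusted p = 0.0462), and without the endothelial sham array it was -0.18 (limma adjusted p = 0.881), so the single endothelial arrays decided the value.

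**Figure D2:**
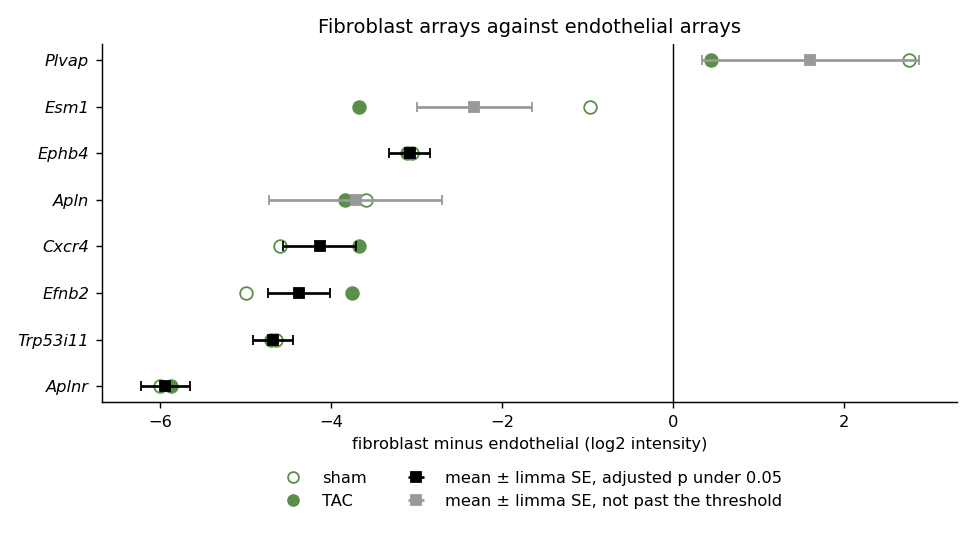
Fibroblast minus endothelial difference in log2 intensity (horizontal axis) for each gene between the sham arrays (open circles), between the TAC arrays (filled circles) and as the average with the limma standard error (squares; black where the adjusted p was under 0.05). The circles coincide for Aplnr, Trp53i11 and Ephb4 and lie apart for Plvap (2.77 and 0.45) and Esm1 (-0.97 and -3.68).

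The second question was how these genes differed between TAC and sham hearts in endothelial cells, with 1 array against 1 and therefore no test. Plvap stood 11.9-fold higher after TAC, Apln 4.71-fold and Esm1 2.80-fold, and Cxcr4 stood 2.14-fold lower. The other 4 genes lay within 2-fold. All 8 genes were detected on the endothelial arrays, and 3 of the 8 stood at least 2-fold higher, where 10.9% of 11157 detected genes did. At least 2-fold lower stood 1 of the 8, where 1.83% did. Plvap and Esm1 lay below the median of the sham array, at percentiles 38.7 and 47.5. They counted as detected only through the TAC array, where they stood higher, so these counts describe the genes and test nothing. The median of the 8 genes was -0.19, beside 0.18 over all detected genes, so the 3 highest genes were not typical of the list.

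The 3 higher genes differ in where else they were measured. Apln lay at percentile 64.5 of the endothelial sham array and at 86.3 of the TAC array (a difference of 2.24), and Esm1 at 47.5 and 65.4 (1.49). For both, the TAC fibroblast arrays stood far below the endothelial TAC array, at 7.0% of its level for Apln and 7.82% for Esm1. Plvap lay at the percentiles 38.7 and 82.0 (3.57), and for it the TAC fibroblasts stood above the endothelial TAC array, at 137% of its level. The endothelial TAC array carried Plvap at 73.2% of the mean TAC fibroblast level. For the 18 fibroblast markers the same percentage ran from 5.65% to 71.8% with a median of 20.5%, with Pdgfra at 9.71% and Col1a1 at 51.7%. The highest, Lamc3, was not detected on the endothelial arrays, and Col3a1 had the highest percentage among the detected markers, 64.5%. For 12 markers of activated fibroblasts it ran from 7.93% to 47.5% with a median of 12.0%. The part of fibroblast RNA in the Plvap difference was not tested beyond these values.

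Cxcr4 differed by -1.10 and Efnb2 by -0.49, with all 4 Efnb2 probe sets between -0.59 and -0.29. The 2 Aplnr probe sets disagreed in direction, at -0.48 for the main one and 0.26 for the other, so no direction is given for the apelin receptor. Ephb4 (-0.20) and Trp53i11 (-0.17) lay closest to 0. Of the 20 endothelial markers 0 stood 2-fold apart between the surgeries, with a median of -0.25 and a summed intensity of 187297 at sham and 159632 after TAC.

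Other cell types and cell states also differed between these arrays. Of 19 proliferation genes 18 stood at least 2-fold higher on the endothelial TAC array, with a median of 3.94, and the same number of 18 did so in both fibroblast populations. The list had a summed intensity of 2607 on the endothelial sham array and 35752 on the TAC array. Of 12 markers of activated fibroblasts 11 stood at least 2-fold higher and 1 lower on the endothelial TAC array (6888 and 19696). The lower one was Acta2 (12.26 at sham and 11.25 after TAC). It had the highest level of the list at sham, so the 2 sums differ less than those of the other markers. Of 9 detected cardiomyocyte markers 6 stood at least 2-fold lower, and the list of 12 summed to 12611 at sham and 5757 after TAC. Of 6 detected macrophage markers 2 stood at least 2-fold higher (1407 and 2245 summed over 12). Of 11 detected mural markers 1 stood higher and 2 lower (17773 and 14815 summed over 12). The higher one was Mcam (1.46), which is also in the list of other tip cell genes below. Of 4 detected endocardial markers 1 stood at least 2-fold higher, and it was Plvap itself (3.57). Among 3 detected lymphatic markers 1 stood at least 2-fold higher, Pdpn (1.27). The lymphocyte and erythroid lists had 1 detected marker each, and it lay within 2-fold. The part of these lists in the values of the 8 genes was not tested.

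**Figure D3:**
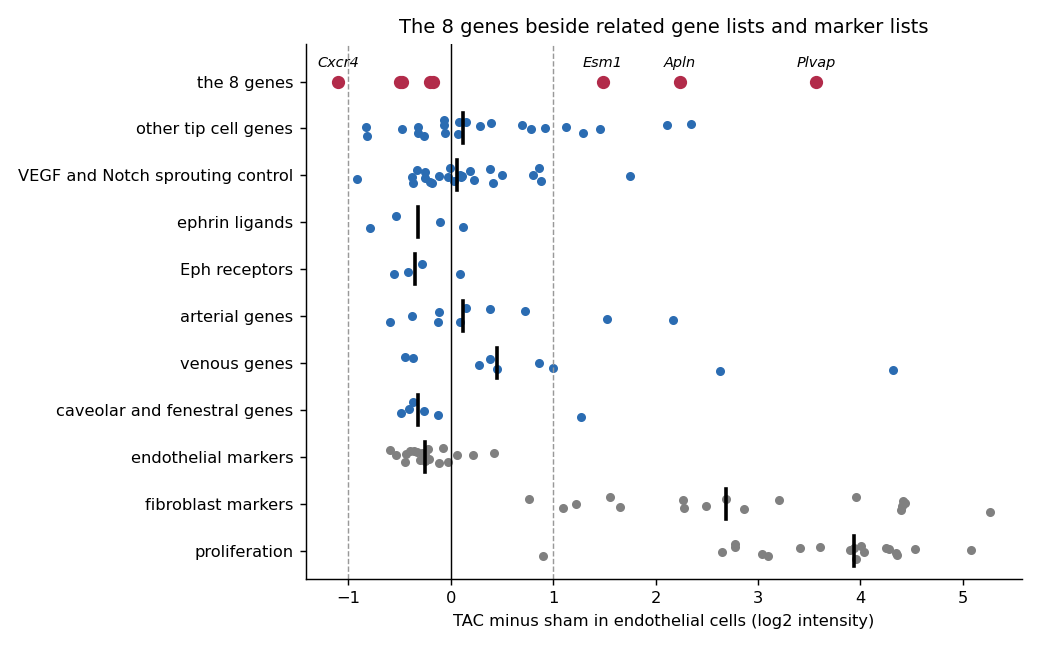
TAC minus sham difference in endothelial cells, in log2 intensity (horizontal axis), for the 8 genes (red), for detected genes of 7 related lists (blue) and of 3 marker lists (grey), with each list's median as a black bar and dashed lines at 2-fold. Plvap, Apln and Esm1 lie to the right of the 2-fold line and Cxcr4 just past the one on the left, while the endothelial markers gather around a median of -0.25 and the fibroblast and proliferation lists lie far to the right.

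The third question was whether the fibroblasts of TAC hearts differed in the same genes, again with no test. Plvap was the only detected member at least 2-fold higher in both fibroblast populations, by 2.64-fold in traced and 2.16-fold in untraced fibroblasts. Of 11623 genes detected on the fibroblast arrays 4.33% were at least 2-fold higher in both and 1.79% at least 2-fold lower. That is 1 of the 6 detected members higher and 0 lower. Apln and Esm1 lay below the array median on all 4 fibroblast arrays and are outside these counts.

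Apln stood 2.39 higher after TAC in traced and 1.59 higher in untraced fibroblasts, with percentiles of 9.75 and 21.2 on the sham arrays and of 42.8 and 45.3 on the TAC arrays. Because these levels are dim the size depends on how low values are treated: with 32 units added, the differences were 1.22 and 0.95. The endothelial markers did not stand higher on the TAC fibroblast arrays as a list, with medians of -0.68 and -0.42 over the 16 detected. Of these, 12 were below 0 in both populations and 3 stood at least 2-fold higher in both. The 3 were Ecscr (2.74 in traced and 2.80 in untraced fibroblasts), Erg (1.79 and 1.62) and Ptprb (1.57 and 1.23). The part of endothelial RNA in the fibroblast differences of Apln was not tested.

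Esm1 went the opposite way in fibroblasts, -0.97 in traced and -1.47 in untraced cells, against 1.49 in endothelial cells. With 32 units added these values were -0.37, -0.96 and 1.25. Efnb2 showed the reverse split, 0.54 and 0.96 in fibroblasts against -0.49 in endothelial cells, and all 4 of its probe sets were above 0 in both fibroblast populations and below 0 in endothelial cells. Cxcr4 (-0.14 and -0.20), Trp53i11 (-0.20 and -0.27) and Ephb4 (-0.04 and -0.50) were on the lower side in both. Aplnr was at -0.70 in traced and 0.01 in untraced fibroblasts.

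**Figure D4:**
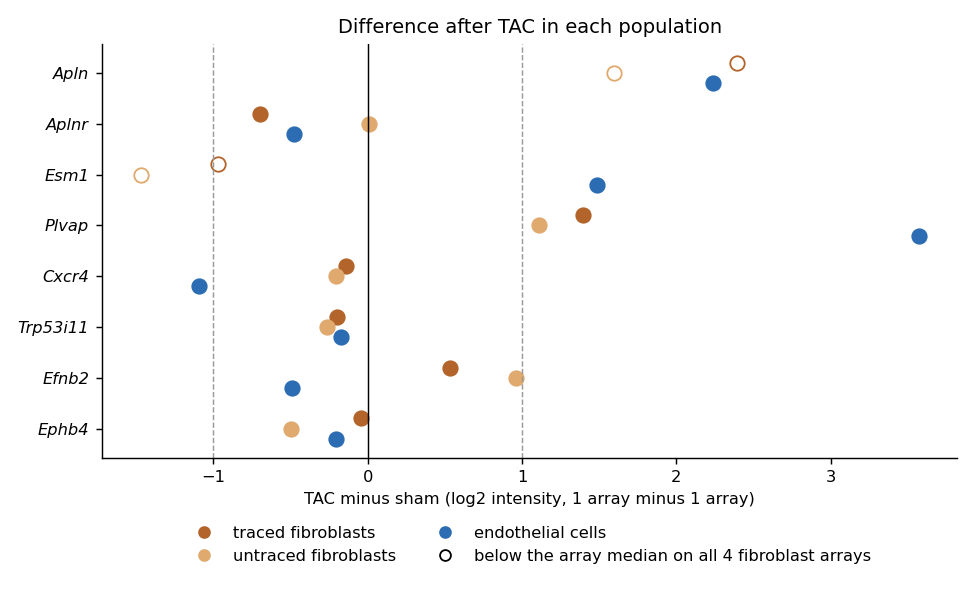
TAC minus sham difference in log2 intensity (horizontal axis) for each gene in traced fibroblasts, untraced fibroblasts and endothelial cells, 1 array minus 1 array per point, with dashed lines at 2-fold. Open circles mark genes below the array median on all 4 fibroblast arrays. Apln and Plvap lie to the right of the 2-fold line in all 3 populations, and for Esm1 and Efnb2 the fibroblasts and the endothelial cells lie on opposite sides of 0.

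By lineage, 0 of the 6 detected members were at least 2-fold apart between traced and untraced fibroblasts at both surgeries, where 0.0688% of 11623 genes were. Plvap differed by -0.07 at sham and 0.22 after TAC, Ephb4 by -0.15 and 0.31, and Cxcr4 by 0.19 and 0.26. Aplnr differed by -0.35 and -1.06 with the main probe set and by 0.04 and -0.28 with the other. The dim gene Esm1 was lower in traced fibroblasts at both surgeries, by -1.91 and -1.41, and with 32 units added these values were -1.18 and -0.59. Apln was at -0.90 and -0.10.

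Lists of related genes were read beside the 8 genes, as a background for them. The shares over all genes apply to each list: 6.5% of genes tested were higher in endothelial cells and 11.5% in fibroblasts. Between the endothelial arrays 10.9% of detected genes stood at least 2-fold higher after TAC and 1.83% lower. Of 22 other tip cell genes 7 were higher in endothelial cells and 0 in fibroblasts (limma), with a median of -0.37. They included Ramp3, which shapes the receptors of adrenomedullin (-5.90, limma adjusted p = 0.0038), the platelet-derived growth factor gene Pdgfb (-5.39), the endothelin receptor gene Ednrb (-4.99) and Rgcc (-4.76). After TAC 5 of the 22 stood at least 2-fold higher in endothelial cells and 0 lower, with a median of 0.12. These were the activin subunit gene Inhbb (2.34), the membrane metalloproteinase gene Mmp14 (2.11), the adhesion molecule gene Mcam (1.46), the potassium channel subunit gene Kcne3 (1.29) and the nidogen gene Nid2 (1.13). The endothelial TAC array stood at 968% of the TAC fibroblast level for Mcam, 1464% for Kcne3, 129% for Inhbb and 19.7% for Mmp14. Mcam was also 2.34 and 1.67 higher after TAC in traced and untraced fibroblasts. The tip cell genes Angpt2, Pdgfb and Adm differed by -0.47, -0.26 and -0.06.

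Of 25 genes of VEGF and Notch sprouting control 12 were higher in endothelial cells and 2 in fibroblasts, with a median of -1.55. The VEGF receptor genes Flt1 (-6.35), Kdr (-6.26) and Flt4 (-5.51) and the Notch feedback gene Nrarp (-6.11) lay furthest to the endothelial side, and the Notch target gene Heyl (3.35) and the Notch effector gene Rbpj (2.19) were higher in fibroblasts. Between the endothelial arrays 1 of 24 detected genes stood 2-fold higher after TAC, where 10.9% of all detected genes did. It was the placental growth factor gene Pgf (1.75), and the median of the list was 0.06. Pgf stood at 97.7% of the TAC fibroblast level on the endothelial TAC array and differed by -1.67 and -1.97 in traced and untraced fibroblasts. Dll4, the Notch ligand of tip cells, differed by -0.38 and Kdr by -0.25.

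Of the other ephrin ligands 1 of 5 tested was higher in endothelial cells (Efna1, -3.14) and 2 in fibroblasts (Efna5, 2.69, and Efna2, 1.36), and Efnb1 did not pass (-1.18, limma adjusted p = 0.109). Of the other Eph receptors 2 of 8 tested were higher in endothelial cells (Ephb1, -4.48, and Epha2, -2.53) and 3 in fibroblasts (Ephb3, 2.75, Ephb6, 2.26, and Epha3, 1.27). None of the 4 ligands and 4 receptors detected on the endothelial arrays stood 2-fold apart after TAC. The apelin receptor's second ligand gene, Apela, was not detected on any array, at 4.37 to 4.83.

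Of 10 arterial genes tested 7 were higher in endothelial cells and 0 in fibroblasts, among them Sox17 (-6.56) and the gap junction gene Gja5 (-3.69). Of 10 venous genes 4 were higher in endothelial cells, among them Emcn (-6.71) and Vwf (-3.78), and 1 in fibroblasts, Vcam1 (2.16). Genes of both lists stand in the VEGF and Notch list as well. After TAC, 2 of 9 detected venous genes stood at least 2-fold higher in endothelial cells, Lrg1 (4.32) and the selectin gene Selp (2.63). So did 2 of 10 arterial genes, Mgp (2.17) and Fbln5 (1.52), and 10.9% of all detected genes. The endothelial TAC array had Lrg1 at 2113% and Selp at 569% of the TAC fibroblast level, and Mgp at 66.5% and Fbln5 at 33.1%. Of 6 caveolar genes, related to Plvap by where its protein sits, 4 were higher in endothelial cells and 0 in fibroblasts, such as Cav2 (-4.87) and Cav1 (-3.52). After TAC Cav1 differed by -0.41 and Cav2 by -0.26 in endothelial cells, and only Cavin3 stood at least 2-fold higher (1.27), a gene that the TAC fibroblasts hold at a like level, with the endothelial TAC array at 86.9% of theirs.

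For each of the 8 genes, the nearest profiles over the 6 arrays were found among the other 12256 detected genes. The distance was the root mean square difference in log2 intensity after each gene had been centred on its own mean. Trp53i11 lay nearest to Dll4, at a distance of 0.09, and then to Parvb (0.17) and Shank3 (0.18). Apln lay nearest to Mcam (0.25), which stood at 6.39, 7.40, 8.73, 9.06, 10.71 and 12.17 on the traced sham, untraced sham, traced TAC, untraced TAC, endothelial sham and endothelial TAC arrays. The next for Apln, Ecscr (0.67) and Chst15 (0.68), were much further away. Plvap lay nearest to Synpo (0.20), Adamts4 (0.30) and Cks1b (0.31), whose endothelial TAC minus sham differences were 2.98, 3.67 and 3.80.

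Aplnr lay nearest to Nrarp (0.20), St6galnac3 (0.21) and Depp1 (0.22), and Ephb4 to Bik (0.12), Slc6a6 (0.13) and Ptp4a3 (0.13). Efnb2 lay nearest to Kcna5 (0.24), Arap3 (0.25) and Lmo7 (0.26). Cxcr4 lay nearest to Tmtc2 (0.18), which was also lower on the endothelial TAC array (-1.01), then to Rnf144b (0.23) and Klk8 (0.26). Esm1 had the most distant first neighbour of the 8 genes, L1cam at 0.45, followed by Amigo2 (0.54) and Bdkrb2 (0.59). These distances rest on 6 arrays of 2 cell types and describe likeness on these arrays alone.

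**Figure D5:**
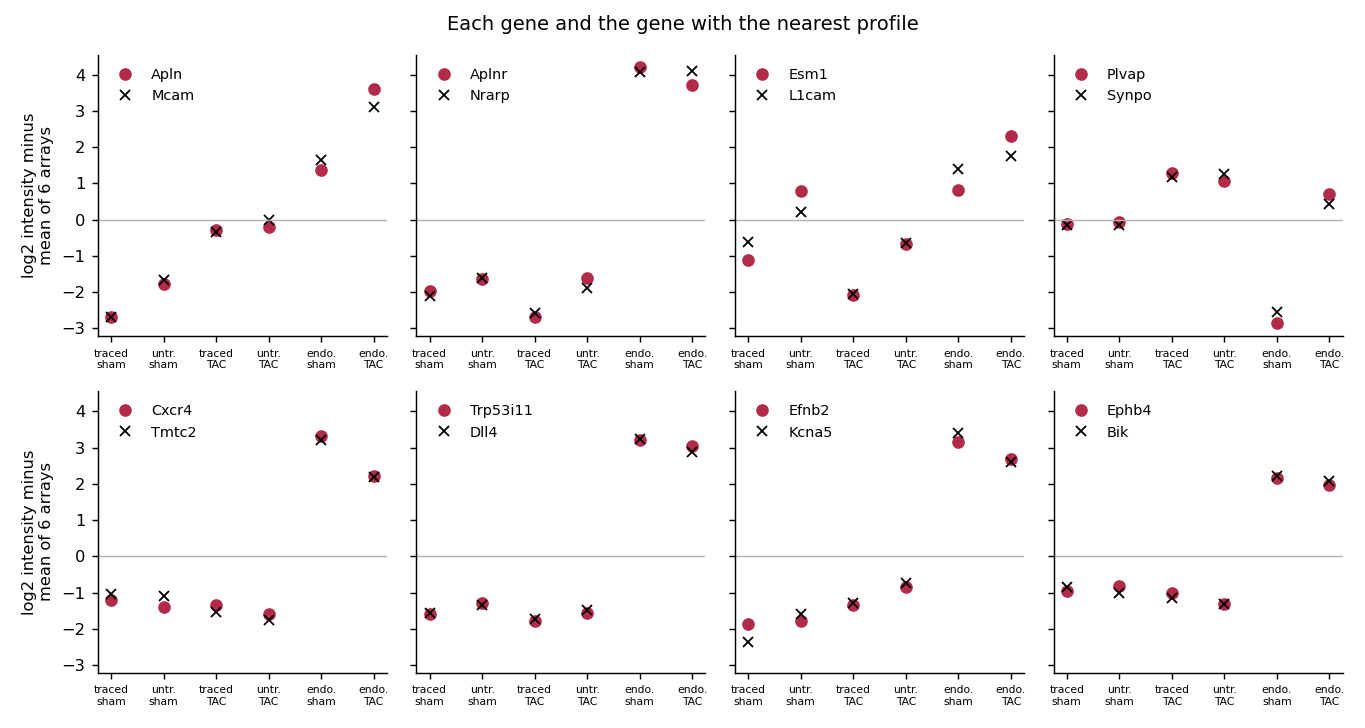
Log2 intensity minus the mean of the 6 arrays (vertical axis) for each of the 8 genes (red circles) and its nearest gene (black crosses) on each array (horizontal axis). Circles and crosses nearly coincide for Trp53i11 and Dll4 (distance 0.09) and are furthest apart for Esm1 and L1cam (0.45).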

How the data were processed

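The deposited intensity values of 45101 probe sets on 6 arrays were used, and the submitters' processing notes name RMA, which subtracts background, normalizes arrays to each other and summarises probes. The sources used here give no version of it. The values run from 3.82 to 37205, which is a linear scale, and log2 was taken with no pseudocount or further normalization. Such values can understate the differences of dim probe sets, which was not tested here. The size of these differences also depends on how low values are treated, and the values come with no detection call. Probe sets were named from GEO's platform annotation, with symbols brought up to date through the GRCm38.p6 gene table (99.4% of identifiers found): 34958 probe sets had 1 symbol, 932 several and 9211 none. The probe set with the highest mean stood for a gene.

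The cell type comparison used lmFit and eBayes of limma 3.58.1 (R 4.3.3) across all detected genes, with 2 values per cell type and 2 residual degrees of freedom. The reliability of its p-values, whose spread is the difference between the sham and TAC values of a cell type, was not tested. All other comparisons set single arrays against each other and have no test. Precision is limited by the number of arrays, and a p-value here covers no more than the spread among these samples. Named genes are the 8 genes, up to 4 genes per related list with the largest differences (others were added after their values were seen), direct partners of the 8 genes, and the 3 nearest profiles of each. The members and lists were chosen with earlier results of these data known. Alternatives changed the probe set rule, pseudocount, scaling, filter, arrays used and surgery block. No pair of arrays held identical values.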

Additional observations from a re-analysis of the deposited data

Results flagged for a closer look

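Esm1 and Efnb2 differed between TAC and sham in opposite directions in the 2 fibroblast populations and in endothelial cells. For Esm1 the endothelial difference exceeded the mean fibroblast difference by 2.71 log2 units, and for Efnb2 it lay below it, at -1.24. Each rests on 1 array per group, and the difference between the cell types was not tested. The fibroblast values of Esm1 all lie below the array median, and with 32 intensity units added the Esm1 differences were 1.25 in endothelial cells and -0.37 and -0.96 in traced and untraced fibroblasts.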

How the results depend on the processing

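The 5 genes called higher in endothelial cells were Aplnr, Trp53i11, Efnb2, Cxcr4 and Ephb4, and each kept its call under every one of the 14 alternatives that gave it a value. Ephb4 has only a probe set ending in _a_at and no value without such probe sets, which left 4 calls. With surgery as a block 7 of the 8 genes were called, and the added calls, Apln and Esm1, are of genes below the array median on all 4 fibroblast arrays. The block also raised the calls over all 12257 genes tested, with 1114 higher in endothelial cells against 797. Leaving out each array in turn gave 5 or 6 calls, and a Plvap difference of -0.18 to 3.39, which turned direction without the endothelial sham array. The cause was not tested. Esm1 was not detected with the upper quartile filter or without the endothelial TAC array and has no value there. Over all genes, surgery as a block gave 2298 higher in fibroblasts against 1415, and leaving out the endothelial sham array gave 654, with 445 against 797 higher in endothelial cells. The upper quartile filter left 618 genes at least 2-fold higher after TAC in endothelial cells against 1213, and 2 of the 8 genes instead of 3, because fewer genes were counted. Members at least 2-fold apart after TAC were 1 in traced and 1 in untraced fibroblasts; with no filter they were 2 and 3, and with median centring 2 in untraced fibroblasts, where Efnb2 came to lie past 2-fold. With no filter 1 member, Esm1, was 2-fold apart by lineage at both surgeries, against 0. Pairing by surgery is the block above, and by replicate number no paired analysis was possible because the labels number every array replicate 1. Dim levels limit Apln and Esm1 in fibroblasts.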
